A study of Mus musculus with 10 samples.

Results

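The sodium pump (Na,K-ATPase) moves sodium out of the cell and potassium in, at the cost of ATP. It pairs a catalytic alpha subunit with a glycosylated beta subunit that carries the pump to the plasma membrane, and in brain neurons and glia use different isoforms of both. The NKAIN proteins are small membrane proteins named for their interaction with the pump's beta subunit. The genes described here are the beta subunits Atp1b1, Atp1b2 and Atp1b3 and the family Nkain1, Nkain2, Nkain3 and Nkain4, 7 of the 18453 genes in each count table. They were chosen by symbol, with their values in this same contrast already known. Their differences between the groups are therefore descriptions, without p-values, and support nothing.

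RNA was measured in 10 libraries of CA3, the hippocampal field reached by the mossy fibres of the dentate gyrus. The mice were C57BL/6J and labelled male, although the injection protocol names either sex. In the knockdown group (5 libraries) an adeno-associated virus carrying an shRNA against Mef2c, a transcription factor of neuronal development, had been injected into CA3 on both sides. In the scramble group (5 libraries) the same type of virus carried a scrambled hairpin, so every mouse had been injected. The hairpin was aimed at pyramidal neurons, but the RNA came from the whole tissue. The sources used here do not give the mice's age, the time after injection, the promoter of the hairpin or any pooling of animals. They do not say that each library is a separate mouse either. The p-values therefore set the difference between the groups only against the spread of the libraries, which may be technical.

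Library totals were 15669620 to 17798090 counts in the knockdown group and 14701928 to 15637076 in the scramble group. Mef2c stood at 111, 131, 121, 163 and 286 CPM (counts scaled to library size with TMM factors) in knockdown libraries 1 to 5, against 166, 198, 176, 312 and 175 CPM in scramble libraries 1 to 5. The library labelled knockdown 5 thus went against its label, and scramble library 4 was the highest of all 10 libraries. The same libraries had the highest cortical neuron marker scores (means of centred log2 CPM), at 0.738 and 0.47. The part of these markers in the Mef2c values was not tested. The difference in Mef2c between the groups did not pass (log2 fold change -0.34, SE 0.30, edgeR adjusted p = 0.489). The log2 fold change of Mef2c was -0.64 (SE 0.21) without the library labelled knockdown 5, and did not pass then either (edgeR adjusted p = 0.0877). Without scramble library 4 alone it was -0.14 (SE 0.28, edgeR adjusted p = 0.799), and without knockdown libraries 2, 3 and 4 it was -0.06 (SE 0.41). Mef2c was called lower in 2 of the alternative fits. It was at -0.45 (SE 0.10, edgeR adjusted p = 0.0274) without scramble library 4 and the library labelled knockdown 5. With the cortical neuron marker score as a covariate it was at -0.29 (SE 0.08, edgeR adjusted p = 0.0194). Mef2c has 15.7 kb of annotated exon, and the length and GC correction described below put it at 0.01 (SE 0.32), with an edgeR adjusted p of 0.991. No marker gene of the 13 cell type lists was at 0 in all libraries. The summed CPM of CA3 pyramidal markers was 163 to 238 in the knockdown and 185 to 210 in the scramble libraries. Markers of CA1 (518 to 622 against 587 to 650 CPM) and of the dentate gyrus (259 to 455 against 321 to 409 CPM) were present too. So were markers of cortical neurons, at 170 to 383 against 204 to 315 CPM. Choroid plexus markers varied widely within both groups, at 45.6 to 2740 against 67.7 to 1960 CPM.

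All 7 genes passed the filter on low counts. In the fit over all 14393 tested genes (edgeR quasi-likelihood test with Benjamini-Hochberg adjustment), 2 of the 7 were called at an adjusted p under 0.05. Nkain3 was lower and Atp1b2 higher in the knockdown libraries. Of all tested genes 12.3% were called, 4.66% as higher and 7.61% as lower. The same 2 genes were those whose CPM ranges did not overlap between the groups, which held for 9.34% of all tested genes (3.3% higher and 6.04% lower in the knockdown libraries). Since this contrast chose the genes, nothing is read from these counts. The median log2 fold change was 0.07 over the 7 genes and 0.02 over all tested genes.

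**Figure D1:**
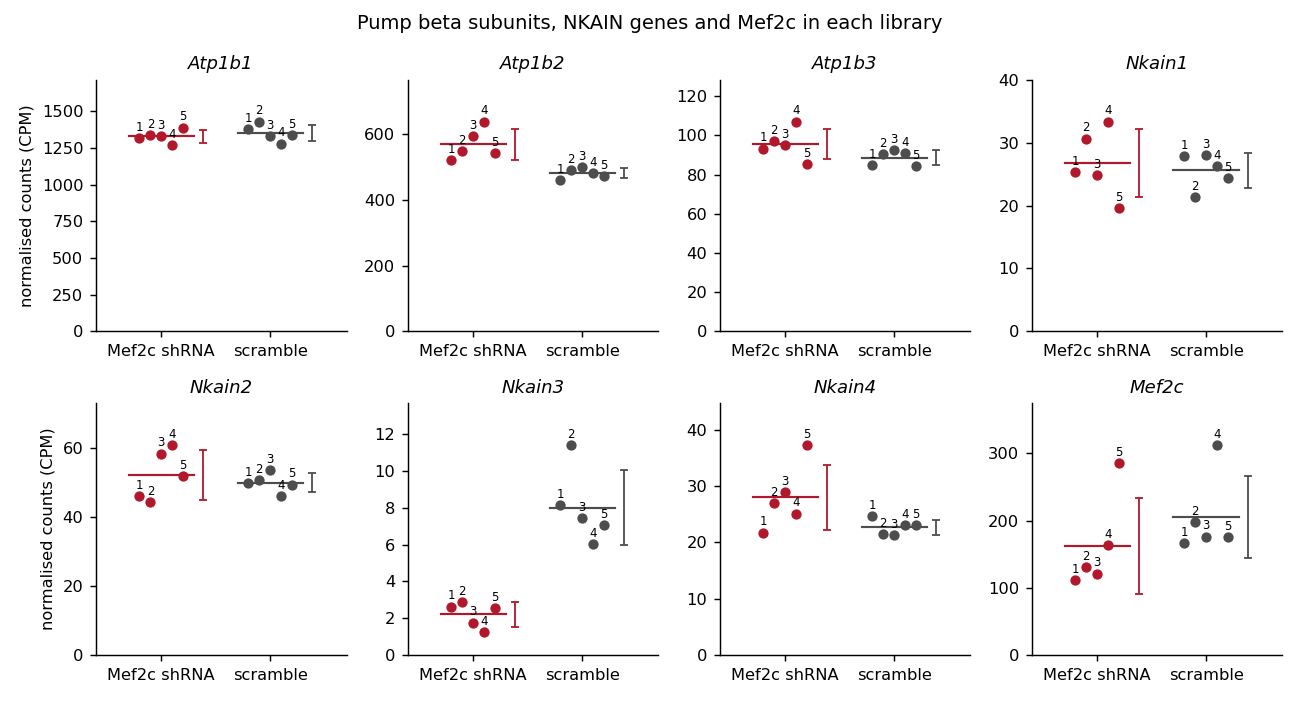
Normalised counts (CPM, y axes from 0) of the 7 genes and of Mef2c in the 5 Mef2c shRNA (knockdown, red) and 5 scramble (grey) libraries. Points carry the library number, horizontal lines are group means and the bars beside them 1 SD. Nkain3 lies between 1.22 and 2.89 CPM in the knockdown libraries and between 6.03 and 11.4 CPM in the scramble libraries.

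Levels of different genes were compared as TPM, counts per kilobase of annotated exon scaled to the same sum in each library. The order was the same in both groups: Atp1b1, Atp1b2, Atp1b3, Nkain4, Nkain1, Nkain2, Nkain3. Atp1b1 averaged 1680 ± 50.1 TPM in knockdown and 1840 ± 74.8 TPM in scramble libraries (SD, n = 5 each), Atp1b2 544 ± 51.0 and 493 ± 18.6 TPM, and Atp1b3 157 ± 16.5 and 155 ± 7.25 TPM. The NKAIN genes followed, from 87.7 ± 14.4 TPM in knockdown and 76.5 ± 4.26 TPM in scramble libraries for Nkain4 to 1.24 ± 0.389 and 4.84 ± 1.26 TPM for Nkain3. Nkain4 and Nkain1 overlapped in both groups, Nkain1 and Nkain2 overlapped in the knockdown libraries, and every other pair of neighbours in this order was separate in both groups. TPM was used only for levels and shares within a library, because its denominator moves with the length trend described below.

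Atp1b1, the beta subunit found in most tissues and in neurons, lies on chromosome 1 (164437109 to 164458355, minus strand, GRCm38). It had 1320, 1340, 1330, 1270 and 1390 CPM in knockdown libraries 1 to 5, against 1380, 1430, 1330, 1280 and 1340 CPM in scramble libraries 1 to 5. The ranges overlapped almost entirely, and the log2 fold change was -0.03 (SE 0.05). Of its annotated exon bases, 18.7% also lie in exons of Nme7 on the other strand. Without knowledge of strand, reads of that stretch cannot be assigned with certainty. Nme7 itself stood at 12.6 ± 1.14 CPM in knockdown and 11.3 ± 1.43 CPM in scramble libraries (SD, n = 5 each), far below Atp1b1.

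Atp1b2, also known as the adhesion molecule on glia and abundant in astrocytes, was higher in the knockdown libraries. Its values were 521, 548, 595, 638 and 543 CPM in knockdown libraries 1 to 5, against 459, 491, 499, 482 and 473 CPM in scramble libraries 1 to 5. Every knockdown library was above every scramble library, the library labelled knockdown 5 included. The log2 fold change was 0.24 (SE 0.06), a fold of 1.18. The gene lies on chromosome 11 (69599736 to 69605942, minus strand, GRCm38) and its exons overlap no other annotated gene.

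The listed astrocyte markers had the same direction as Atp1b2. All 7 of them had a positive log2 fold change, with a median of 0.29. Their summed level was 1770 to 2590 CPM in the knockdown and 1450 to 1890 CPM in the scramble libraries. Slc1a2, the main astrocytic glutamate transporter and not on that list, was lower instead (-0.33, SE 0.07, edgeR adjusted p = 0.0124). With the length and GC correction described below it was at -0.05 (SE 0.05). Aldh1l1 was the marker that passed (0.29, SE 0.07, edgeR adjusted p = 0.0227). Gfap, the intermediate filament of reactive astrocytes, stood at 901 ± 388 CPM in knockdown and 487 ± 130 CPM in scramble libraries (SD, n = 5 each) and did not pass (edgeR adjusted p = 0.149). Knockdown library 4 was highest both in Atp1b2 and in the astrocyte marker score (0.349 in log2 units), while the library labelled knockdown 5 had a score of -0.190, within the scramble range. With that score as a covariate the log2 fold change of Atp1b2 was 0.15 (SE 0.08) and the call was lost. Microglia markers were also higher in the knockdown libraries (4 of 7 rose, where 4.66% of all tested genes did, with a summed level of 316 to 606 CPM against 274 to 371 CPM in the scramble libraries), and with their score as a covariate Atp1b2 was at 0.13 (SE 0.09). After the length and GC correction described below, 0 of 7 astrocyte and 0 of 7 microglia markers were called by edgeR, at median log2 fold changes of 0.23 and 0.47, where 1.43% of all tested genes were called higher. The part of these cells in the Atp1b2 difference was not tested further. In bulk tissue, more cells of a type and more RNA per cell cannot be told apart. The call of Atp1b2 was also lost without any of scramble libraries 1, 2, 4 and 5 or knockdown libraries 2, 3 and 4, at log2 fold changes of 0.20 to 0.26.

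Atp1b3, the third beta subunit (chromosome 9, 96332655 to 96364442, minus strand), had 93.2, 97.0, 95.0, 107 and 85.3 CPM in knockdown libraries 1 to 5, against 84.9, 90.3, 92.6, 90.9 and 84.1 CPM in scramble libraries 1 to 5. Knockdown libraries 1 to 4 were above the highest scramble library and the library labelled knockdown 5 was not. The log2 fold change was 0.11 (SE 0.07).

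Within the beta subunits, Atp1b2 made up 22.8 ± 1.73% of the summed TPM in knockdown and 19.8 ± 0.790% in scramble libraries (SD, n = 5 each). Atp1b1 made up 70.6 ± 2.17% and 73.9 ± 1.09%, and Atp1b3 6.55 ± 0.547% and 6.25 ± 0.319%.

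**Figure D2:**
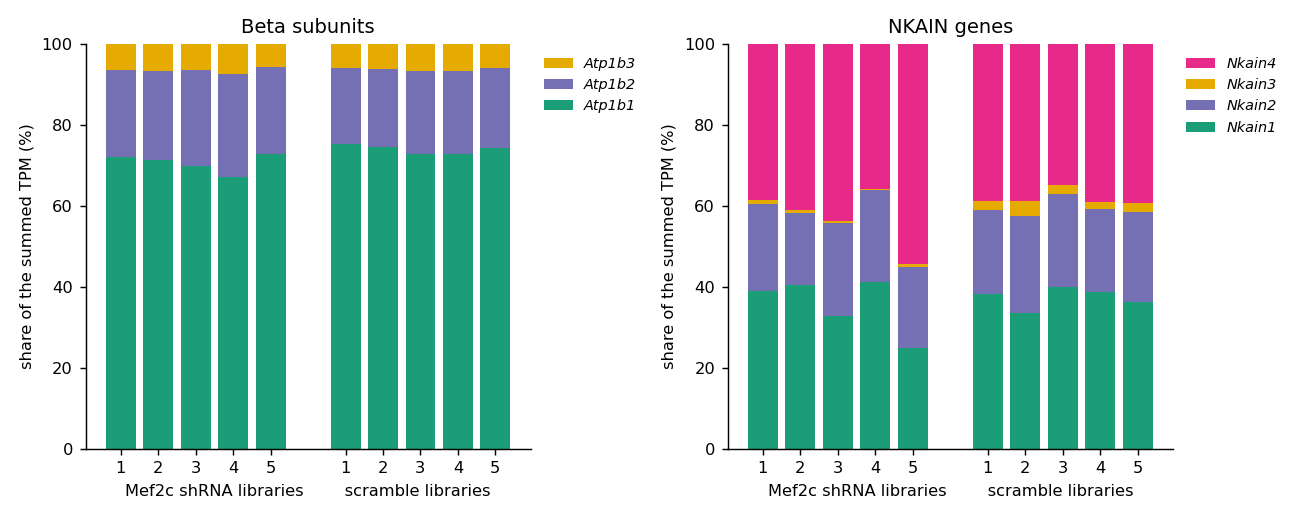
Share of each gene in the summed TPM (percent) of the beta subunits (left) and of the NKAIN genes (right), a bar per library, Mef2c shRNA (knockdown) libraries left of scramble libraries. Atp1b2 takes 21.4 to 25.4% in the knockdown and 18.8 to 20.6% in the scramble libraries, and Nkain3 takes 0.311 to 0.835% and 1.83 to 3.69%.

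The 4 NKAIN genes encode related proteins from separate loci. Their first 60 coding bases are shown because they place Nkain3 among its relatives. Sequence is that of GENCODE M21 transcripts (GRCm38), 5′ to 3′, and capitals mark bases that differ from Nkain3 at the same position.
Nkain3: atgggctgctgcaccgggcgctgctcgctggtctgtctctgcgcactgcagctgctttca
Nkain1: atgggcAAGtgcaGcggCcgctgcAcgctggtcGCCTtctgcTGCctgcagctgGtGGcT
Nkain2: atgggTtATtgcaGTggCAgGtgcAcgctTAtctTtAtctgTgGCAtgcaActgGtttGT
Nkain4: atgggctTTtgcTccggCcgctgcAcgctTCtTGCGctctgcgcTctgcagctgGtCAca
Nkain1 differed from Nkain3 at 17 of these 60 positions, Nkain2 at 21 and Nkain4 at 15. Over the whole coding sequences, aligned positions of Nkain3 were identical to those of Nkain1, Nkain2 and Nkain4 in 69.2%, 68.9% and 69.7% of cases. No stretch shared between any pair of the 4 coding sequences was longer than 20 bases, and the beta subunits shared at most 19.

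Nkain3 was the most changed of the 7 genes. It lies on chromosome 4 (20118874 to 20778866, minus strand, GRCm38, identifier ENSMUSG00000055761), a locus of 660.0 kb with 6.94 kb of annotated exon. It had 2.63, 2.89, 1.76, 1.22 and 2.54 CPM in knockdown libraries 1 to 5, against 8.14, 11.4, 7.43, 6.03 and 7.08 CPM in scramble libraries 1 to 5. These rest on 41, 52, 28, 21 and 42 counts, against 121, 179, 112, 90 and 103 counts. Every knockdown library was below every scramble library, and the library labelled knockdown 5, with its 286 CPM of Mef2c, was no exception. The log2 fold change was -1.86 (SE 0.24), a fold of 0.276, and was the 9th lowest of 14393. Nkain3 took 0.613 ± 0.219% of the summed NKAIN TPM in knockdown and 2.43 ± 0.728% in scramble libraries (SD, n = 5 each). Leaving out any single library kept the log2 fold change between -1.98 and -1.70. With the score of the microglia markers, which were higher in the knockdown libraries, as a covariate it was -1.64 (SE 0.35), and without knockdown libraries 2, 3 and 4 it was -1.64 (SE 0.27). In both of these fits Nkain3 was not called, and neither was any other gene.

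GENCODE M21 annotates 2 coding forms of Nkain3 that share their first 471 coding bases and then end in different exons. Their last 90 coding bases are shown because the form decides where the transcript ends. Capitals mark the bases that each form has alone.
Nkain3 near form, last exon chr4:20243842-20245917 on the minus strand: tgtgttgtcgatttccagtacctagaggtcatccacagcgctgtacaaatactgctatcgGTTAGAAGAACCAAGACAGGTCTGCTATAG
Nkain3 far form, last exon chr4:20118874-20122656 on the minus strand: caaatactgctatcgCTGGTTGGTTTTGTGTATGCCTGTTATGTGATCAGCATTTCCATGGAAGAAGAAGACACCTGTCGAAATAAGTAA
The counts are per gene and do not part the forms. The RefSeq gene of the same assembly runs a further 7845 bp past the GENCODE 3′ end. Whether the authors' annotation held that stretch is not known here.

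Genes of this kind were lower in the knockdown libraries more often than others. Of 12789 tested genes whose RefSeq 3′ end lay under 100 bp past the GENCODE end, 6.87% were called lower and the median log2 fold change was 0.03. Of 199 tested genes with 4000 to under 12000 bp past it, 28.6% were called lower and the median was -0.21. From 12000 bp on 15 of 107 genes were called lower. These bins were chosen after seeing the data. Among the 306 tested genes with 4000 bp or more, Nkain3 had the 3rd lowest log2 fold change. Their 10th percentile was -0.86. Nkain3 was chosen with this contrast known, so nothing is read from its low place among them. The part of the 3′ ends in the Nkain3 difference was not tested.

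**Figure D3:**
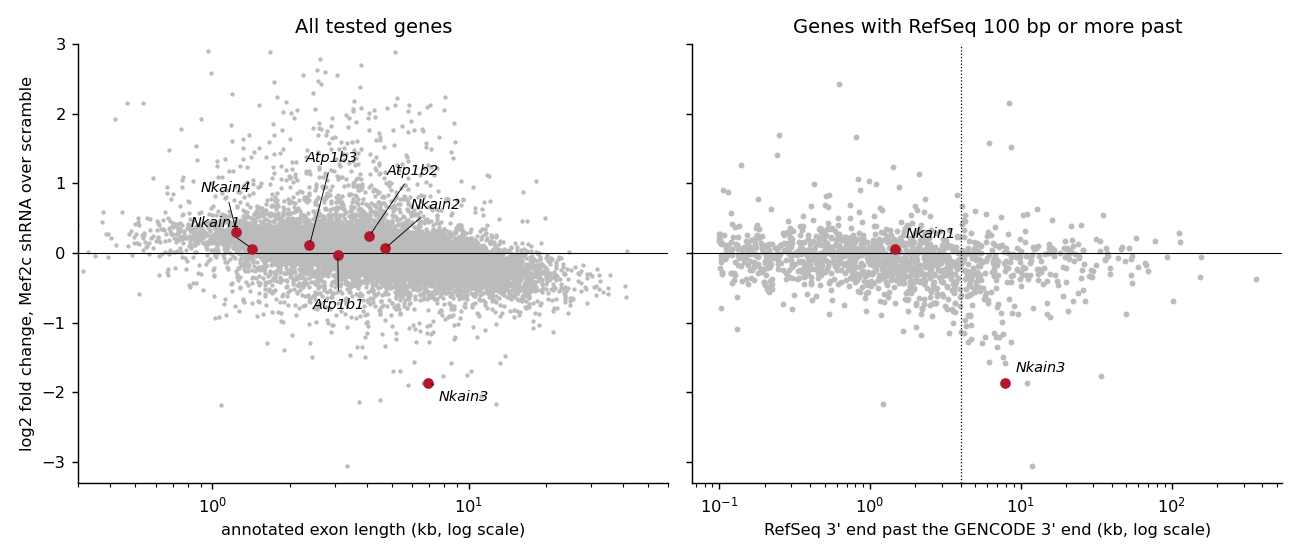
Log2 fold change of Mef2c shRNA (knockdown) over scramble libraries against annotated exon length (left) and against the distance by which the RefSeq 3′ end lies past the GENCODE 3′ end (right, genes with 100 bp or more), both on log axes. Grey points are tested genes (14379 in view on the left, 1348 on the right), red points are the genes described here (on the right, Nkain1 and Nkain3), and the dotted line marks 4000 bp. Nkain3 lies low in both panels at a log2 fold change of -1.86, and the other 6 genes lie between -0.03 and 0.31.

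The other NKAIN genes did not share a difference of this size, and the directions of Nkain1 and Nkain2 depended on the fit. Nkain1 (chromosome 4, 130531602 to 130574173) had 25.3, 30.7, 24.9, 33.4 and 19.6 CPM in knockdown libraries 1 to 5, against 27.9, 21.4, 28.1, 26.3 and 24.4 CPM in scramble libraries 1 to 5. The knockdown libraries spread to both sides of the scramble range, and the log2 fold change of 0.07 (SE 0.13) became -0.19 (SE 0.14) with the length correction described below. Nkain2 has the widest locus of the family, 1201.2 kb on chromosome 10 (31689310 to 32890462). It averaged 52.2 ± 7.26 CPM in knockdown and 49.8 ± 2.75 CPM in scramble libraries (SD, n = 5 each), with overlapping ranges and a log2 fold change of 0.07 (SE 0.09). With the microglia or the astrocyte marker score as a covariate, Nkain2 was at -0.06 (SE 0.13) or -0.05 (SE 0.11).

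Nkain4 (chromosome 2, 180934772 to 180954699) had 21.7, 27.0, 28.9, 25.1 and 37.2 CPM in knockdown libraries 1 to 5, against 24.6, 21.4, 21.3, 23.0 and 23.0 CPM in scramble libraries 1 to 5. Knockdown libraries 2, 3 and 4 and the library labelled knockdown 5 were above every scramble library, and knockdown library 1 lay within their range. The log2 fold change was 0.31 (SE 0.12). The library labelled knockdown 5 stood highest and also had the highest scores of cortical neuron (0.738), interneuron (0.421) and pan-neuronal markers (0.192) of all 10 libraries, in log2 units. Without it the log2 fold change was 0.18 (SE 0.09). Nkain4 was not called, but was so without knockdown library 1 (0.39, SE 0.11) and with the cortical score as a covariate (0.32, SE 0.10). Of its exon bases, 4.44% overlap the antisense gene Gm14341, which is not among the genes counted. The part of these markers in the Nkain4 difference was not tested.

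Fold changes over all genes followed exon length, and this bears on the smaller differences. The median log2 fold change was 0.27 for genes with up to 1 kb of exon, 0.20 from 1 to 2 kb, 0.11 from 2 to 4 kb, -0.02 from 4 to 8 kb and -0.30 above 12 kb. Nkain4 (1.24 kb), Nkain1 (1.43 kb) and Atp1b3 (2.39 kb) are short, and Nkain3 (6.94 kb) is the longest of the 7. After a correction of each library for exon length and GC content, the log2 fold change was -1.73 (SE 0.23) for Nkain3, 0.17 (SE 0.06) for Atp1b2, 0.07 (SE 0.10) for Nkain4, 0.03 (SE 0.06) for Atp1b3, 0.09 (SE 0.09) for Nkain2, -0.10 (SE 0.05) for Atp1b1 and -0.19 (SE 0.14) for Nkain1. Of the 7 genes, Nkain3 was then the only gene called, where 3.16% of all tested genes were. With exon length extended to the RefSeq 3′ end, a setting chosen after seeing the data, Nkain3 was still called, at -1.55 (SE 0.23).

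**Figure D4:**
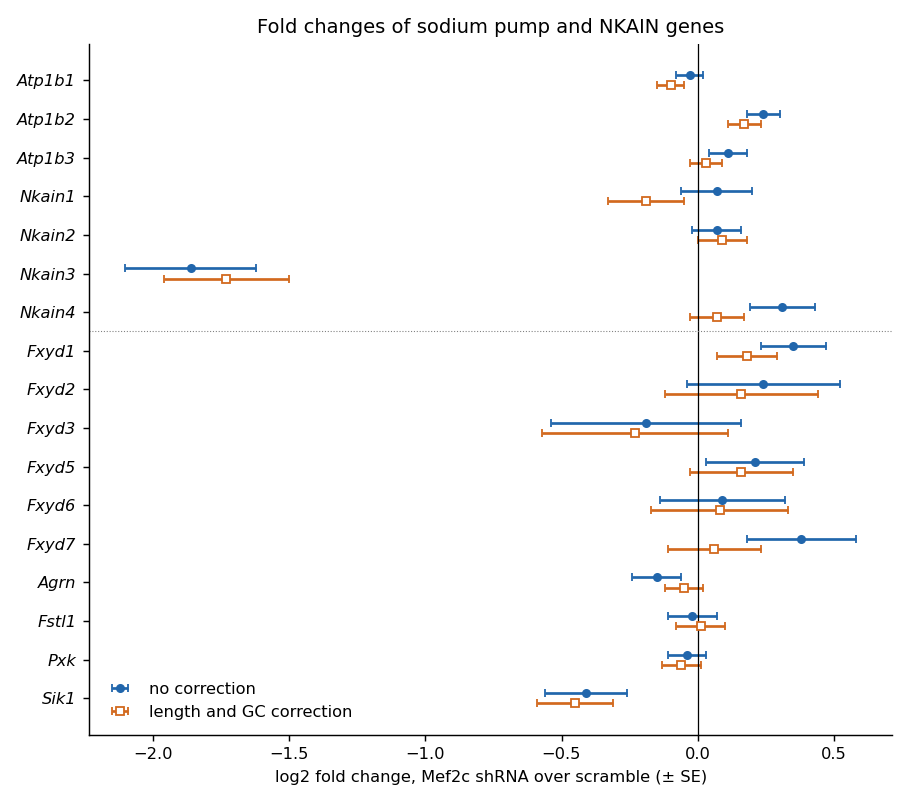
Log2 fold change (± SE) of Mef2c shRNA (knockdown) over scramble libraries for the 7 genes (above the dotted line) and the 10 tested FXYD regulators and partners (below it), without (filled blue circles) and with (open brown squares) the length and GC correction. Nkain3 is at -1.86 and -1.73, and all other genes shown lie between -0.45 and 0.38.

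The FXYD regulators and partners of the pump showed no call. Of 12 other pump genes 10 could be tested and 0 passed edgeR's test, where 12.3% of all tested genes did. At an unadjusted p under 0.05 there were 2 of these 10, and 4327 of all 14393 tested genes. DESeq2 called 1 of them and limma-voom 2. Atp1b4 and Fxyd4 were too low for the filter.

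The FXYD proteins are single-pass membrane proteins that tune the pump. Fxyd1, known as phospholemman, stood at 29.2 ± 3.06 CPM in knockdown and 22.8 ± 3.70 CPM in scramble libraries (SD, n = 5 each) and did not pass (log2 fold change 0.35, SE 0.12, edgeR adjusted p = 0.0588). Fxyd7, a brain form, had a log2 fold change of 0.38 (SE 0.20), Fxyd2 of 0.24 (SE 0.28), Fxyd5 of 0.21 (SE 0.18), Fxyd6 of 0.09 (SE 0.23) and Fxyd3 of -0.19 (SE 0.35). With the length and GC correction Fxyd7, with 0.693 kb of exon, was at 0.06 (SE 0.17) and Fxyd1 at 0.18 (SE 0.11, edgeR adjusted p = 0.38). In Fxyd2, Fxyd5, Fxyd6 and Fxyd7 the library labelled knockdown 5 was the highest of the 10 libraries. Of the partners, Sik1, a salt-inducible kinase, had the lowest value (-0.41, SE 0.15, edgeR adjusted p = 0.0808). Agrn, which encodes agrin, a proteoglycan that binds the pump, had -0.15 (SE 0.09), Pxk, which binds beta subunits, -0.04 (SE 0.07), and Fstl1, a secreted activator of the pump, -0.02 (SE 0.09).

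Carriers and exchangers that run on the gradients the pump makes were lower in several cases. Of 23 tested, 5 were called lower and 0 higher, which is 21.7% called lower beside 7.61% of all tested genes. The median log2 fold change of the 23 was -0.10, and 5 of them had a positive value. Slc24a2, a sodium, calcium and potassium exchanger of neurons, stood at 537 ± 44.9 CPM in knockdown and 769 ± 36.9 CPM in scramble libraries (log2 fold change -0.52, SE 0.07, edgeR adjusted p = 0.000706). Slc1a2, the main astrocytic glutamate transporter, stood at 2590 ± 256 and 3260 ± 183 CPM (-0.33, SE 0.07, edgeR adjusted p = 0.0124). Slc8a1, a sodium and calcium exchanger, stood at 14.4 ± 5.57 and 26.3 ± 2.46 CPM (-0.87, SE 0.22, edgeR adjusted p = 0.0313). The GABA transporter Slc6a11 (-0.28, SE 0.08) and the glutamine transporter Slc38a1 (-0.34, SE 0.08) fell as well, while the bicarbonate transporter Slc4a10 (-0.29, SE 0.09, edgeR adjusted p = 0.0558) did not pass. After the length and GC correction Slc24a2 (-0.26, SE 0.05) and Slc6a11 (-0.32, SE 0.06) were the 2 still called, which is 8.70% beside 1.73% of all tested genes. Slc1a2 was then at -0.05 (SE 0.05), Slc38a1 at -0.01 (SE 0.05) and Slc8a1 at -0.52 (SE 0.21).

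Likeness of pattern was measured as the root mean square difference of log2 CPM, each gene centred over the 10 libraries. This keeps the difference between the groups, so a gene with a large difference is bound to lie near others with a large one. The genes nearest to Nkain3 were Gucy1a2, a nitric oxide receptor subunit (0.384 log2 units), Stxbp5l, a tomosyn of vesicle release (0.456), and the teneurin Tenm1 (0.457), where Nkain3 itself varied by 0.988 about its mean. The log2 fold changes of Gucy1a2, Stxbp5l and Tenm1 were -1.86, -1.57 and -1.07. Gucy1a2 and Stxbp5l also have RefSeq 3′ ends far past the GENCODE end, by 11055 and 7867 bp, and Tenm1 has none (0 bp). Atp1b2 was nearest to the lysosomal GTPase Arl8a (0.040) and to Gnai2 and Snx24, and Nkain4 to the mitochondrial ATPase inhibitor gene Atpif1 (0.056), Gstm5 and Surf1. Nkain1 was nearest to Mapk7, Apeh and Lmnb1, Nkain2 to Scara3, Zbtb24 and Endod1, Atp1b3 to Tor1aip2, Abhd3 and Phf23, and Atp1b1, which varied by 0.048 itself, to Morf4l2, Reep5 and Zfp810.

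The consensus motif of MEF2 factors was searched on both strands of the RefSeq promoter windows (GRCm38.p6, 250 bases before to 50 after each start). Of the 7 genes, Nkain1, Nkain2, Atp1b1 and Atp1b3 matched by symbol, with 5 windows. Nkain3, Atp1b2 and Nkain4 had no window and were not searched. The motif was in 0 of the 5 windows and in 3.19% of all 32851 windows. At that share so few windows would mostly hold none, so nothing is read from this. These 5 windows were rich in G and C, from 71.0 to 80.0%, where the median of all windows was 52.7%.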

How the data were processed

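Per the labels' protocols, polyadenylated RNA was sequenced as read pairs on an Illumina instrument. The submitters' processing notes name HISAT2, featureCounts and mm10; their versions, the strandedness, the annotation and any row filter are not known here. Whole-number counts per Ensembl gene were deposited, not normalized by the authors, and 18445 of 18453 identifiers matched GENCODE M21 (GRCm38, the assembly of mm10). Groups came from sample titles; the treatment tag of knockdown library 1 is misspelt. No library duplicated another of its own group (chi-square per degree of freedom 3.74 to 37.4). Pairs across the groups were not compared in this way.

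The test was edgeR's robust quasi-likelihood test (version 4.0.16, in R 4.3.3) after filterByExpr and TMM, with limma 3.58.1 and DESeq2 1.42.0 as alternatives, after tests on simulated data. SE is the log2 fold change divided by the square root of F. Log2 CPM used a prior count of 2. Depth makes counting error small for all but the lowest genes. The length and GC correction fits natural splines (5 degrees of freedom) of log2 exon length and of GC content of the longest transcript to each library and uses them as offsets. Marker scores are means of centred log2 CPM. Named genes are the 7 members, Mef2c, the other pump genes, the 6 transporters with the smallest p, the 2 most abundant markers of a list where used, and the 3 genes nearest to each member. Aldh1l1, Nme7, Kcng3 and Slc9a7 were named after their values were seen. The members and lists were chosen with earlier results of these data known. Some pump genes of that rule are not reported here.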

Additional observations from a re-analysis of the deposited data

Results flagged for a closer look

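Among 34 groups of 5 libraries tested for a library far from the others, 3 had such a library, where chance gives about 1 in 20. Fxyd1 was lowest in scramble library 2, at 16.4 CPM, with the other scramble libraries between 23.7 and 25.6 CPM. Fxyd2 was highest in the library labelled knockdown 5, at 2.72 CPM. Fxyd5 was highest in the library labelled knockdown 5 as well, at 19.0 CPM, with knockdown libraries 1 to 4 between 9.95 and 11.2 CPM. None of the 7 beta subunit and NKAIN genes had such a library in either group.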

How the results depend on the processing

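The call of Nkain3 held under every alternative except the microglia marker score as a covariate and the removal of knockdown libraries 2, 3 and 4, where its log2 fold change was -1.64 each time and no gene of all tested was called. Over all genes 1766 were called, and 3402 with limma-voom, 455 with the length and GC correction, 429 with it and the replicate block, 483 with RefSeq 3′ ends in it (chosen after seeing the data), 557 with the astrocyte score, 2841 with the cortical score, 1029 without scramble library 4 and the library labelled knockdown 5, 0 with the microglia score and 0 without knockdown libraries 2, 3 and 4. Of the 7 genes 2 were called, and 1 with each length correction, with the astrocyte score and without scramble library 4 and the library labelled knockdown 5, and 0 with the microglia score or without knockdown libraries 2, 3 and 4. Of the other pump genes 0 were called, and 1 with DESeq2, 2 with limma-voom and 2 with the cortical score. Of the transporters 5 were called, and 8 with DESeq2, limma-voom or the cortical score, 3 with the astrocyte score or without scramble library 4 and the library labelled knockdown 5, 2 with each length correction, and 0 with the microglia score or without knockdown libraries 2, 3 and 4. The microglia markers were themselves higher in knockdown libraries (median log2 fold change 0.48, 4 of 7 called), so that this fit cannot part them from the group. Leaving out single libraries gave 631 to 3305 calls over all genes, 1 to 3 of the 7, 0 to 1 of the other pump genes and 2 to 8 of the transporters; the cause of these moves was not tested. Replicate numbers did not pair the libraries: across genes, same-numbered deviations correlated at 0.24, 0.18, 0.40, -0.11 and 0.08, and 1 of 5 libraries matched its own number best. With the replicate block 1313 genes and the same number of members (2) were called. Plain CPM, without length, kept the place of 5 of the 7 genes in the order of levels, and the longest transcript as length that of all 7. Nkain3 rests on 21 to 52 counts per knockdown library, which limits how precisely its fold is known.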

Other observations

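Of 51 genes called with a log2 fold change of -1 or lower, 45 were matched to RefSeq, and in 19 of these (42.2%) the RefSeq 3′ end lay 4000 bp or more past the GENCODE end. Among all matched tested genes the share was 2.16%, and among 53 matched genes called with a log2 fold change of 1 or higher it was 0 of 53. Nkain3, Gucy1a2 and Stxbp5l are among the 19, and so are the potassium channel subunit gene Kcng3 (-3.05, with 11934 bp) and Slc9a7, a sodium and proton exchanger gene (-1.35, with 6903 bp). These were named after their values were seen. The 51 genes were picked by this same contrast, and the limit of 4000 bp was chosen after seeing the data. The part of the 3′ ends in these differences was not tested. Of the 306 tested genes with 4000 bp or more, 93 had a log2 fold change above 0.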
